A study of Mus musculus with 6 samples.

Results

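The 10 genes described here encode secreted or membrane-bound cues that steer growing vessels, and receptors that read such cues. They are Sema3a, Sema3e, Sema3f, Sema6a, Plxnd1, Ntn4, Unc5b, Slit2, Robo4 and Efnb2, taken by gene symbol from the 31053 genes of the deposited tables, and each of them held UMIs (unique molecular identifiers, each standing for 1 captured RNA molecule) in all 6 samples. Single-cell RNA was measured at P17 in the retinas of wild type mice. The OIR group (oxygen-induced retinopathy) breathed 75% oxygen from P7 to P12 and room air from then to P17, and the control group was left untreated. Each group held 3 samples, and each sample pooled the retinas of 2 mice. The question was which neurons and glia carried each cue, how much receptor RNA the vascular endothelial cells (VECs) carried, and whether either differed between OIR and control retinas.

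As background, vessels in the retina grow along glia and beside neurons, and their tips respond to attractive and repulsive cues that were first known from growing axons. Class 3 semaphorins are secreted and mostly repel endothelial tips. Sema3e binds the plexin Plxnd1 directly, Sema3a and Sema3f act through neuropilins, and Sema6a is anchored in the membrane. Slit2 is read by Robo receptors, and Robo4 is a member of that family found on endothelium. Whether Slit2 acts through Robo4 was not examined here. Netrins such as Ntn4 belong to a system in which Unc5b is a repulsive receptor. The membrane protein ephrin-B2 (Efnb2) marks arterial endothelium and signals through Eph receptors on neighbouring cells. In OIR, high oxygen first removes central vessels, and the ischemic retina then sends new vessels toward the vitreous.

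The 6 samples held between 15788524 and 42606878 UMIs, and 38569 of their 47631 barcodes passed the limits of 500 to 5000 detected genes and at most 20% mitochondrial UMIs. Both replicate 1 samples were the deepest of their group. The sample labels name retinal endothelial cells, but only 194 of the 38569 cells fell in the cluster with VEC markers, against 25763 rod-like, 3485 Mueller-like, 3430 cone bipolar-like, 2055 rod bipolar-like, 1926 cone-like, 354 amacrine-like, 244 microglia-like, 236 RPE-like (retinal pigment epithelium), 86 VSMC and pericyte-like and 56 astrocyte-like cells, with 740 left unnamed. No cluster was named for horizontal or ganglion cells, so levels in those cells are not given. The amacrine-like cluster held UMIs of both marker lists, and the part of such cells in its levels was not tested. Control replicates 2 and 3 carried Xist and almost no Y-linked UMIs and the other 4 samples the reverse. Where control replicate 1 was left out, or replicates 2 and 3 were used alone, group and sex thus cannot be told apart. With all 6 samples, group and sex were confounded in part. With a term for sex, the OIR effect rested on control replicate 1, the only control sample of the same sex as the OIR samples. Kept cells of any pair of samples shared between 3 and 17 barcodes. UMIs were summed per sample and cell type and are given as CPM, the UMI count scaled to 1000000 UMIs in that sum. Shares of a gene's UMIs by cell type are pooled over all 6 samples, which differed in cell make-up and depth. Rod-like cells were 2375 of 7146 kept cells in control replicate 1 and 6115 of 7024 in control replicate 3. These shares thus depend on which cells were captured and are not source shares of the retina. Since the libraries read the 3′ ends of transcripts, levels are compared between cell types for 1 gene and not between genes.

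The semaphorin cues came from different cells. By cell type, Sema3f was spread over photoreceptors. Its level averaged 57.2 ± 7.73 CPM (SD, n = 6) in rod-like, 43.9 ± 4.14 CPM in cone-like and 36.1 ± 15.7 CPM in RPE-like sums, and the ranges of these neighbours overlapped. Mueller-like and cone bipolar-like sums followed with 20.3 and 19.3 CPM, and rod-like cells, 66.8% of all cells, gave 63.8% of all Sema3f UMIs. By cluster, cone bipolar-like cluster 10, led by Grik1 and Otor, stood as high as rod-like sums, with 58.1 ± 24.1 CPM (SD, n = 6).

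By cell type, Sema3e was highest in Mueller glia and rod bipolar cells. It averaged 38.3 ± 6.46 CPM (SD, n = 6) in Mueller-like and 37.6 ± 16.0 CPM in rod bipolar-like sums, which overlapped, and the range of both lay above that of cone bipolar-like sums at 12.1 ± 3.92 CPM. Mueller-like cells gave 51.4% of its UMIs, rod bipolar-like cells 29.8% and cone bipolar-like cells 16.3%. Among the 8 types that had 10 or more cells in each sample, the mean in no other type exceeded 1.25 CPM, and cone-like and RPE-like sums held 0 Sema3e UMIs. By cluster the order differed, since cone bipolar-like cluster 9, described below, averaged 52.0 ± 18.6 CPM (SD, n = 6).

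Sema6a was highest in amacrine-like and Mueller-like sums among the 8 types compared, and VEC-like cells, too few in most samples for that comparison, held 149 CPM over all samples pooled. The level was 101.5 ± 38.9 CPM in amacrine-like and 87.2 ± 22.9 CPM in Mueller-like sums (SD, n = 6), with overlapping ranges, and the range of Mueller-like sums lay wholly above that of cone bipolar-like sums at 11.5 ± 2.91 CPM. Mueller-like cells, 9.04% of cells, gave 72.9% of its UMIs. Sema3a was sparse. Only 117 UMIs of it were counted over all kept cells, 55 of them in cone bipolar-like and 31 in amacrine-like cells, and its level was 18.0 ± 12.9 CPM in amacrine-like against 3.11 ± 1.44 CPM in cone bipolar-like sums, without overlap.

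Slit2, the secreted Robo ligand, belonged mainly to cone bipolar cells. It averaged 214.9 ± 26.8 CPM in cone bipolar-like and 180.2 ± 98.2 CPM in amacrine-like sums (SD, n = 6), whose ranges overlapped, and rod bipolar-like sums came next and apart with 24.8 ± 9.88 CPM. Cone bipolar-like cells, 8.89% of cells, gave 82.9% of Slit2 UMIs. Within them it was concentrated in a single cluster of 392 cells, number 12, in which Slit2 led the genes that set the cluster apart, so its level there is a description of the cluster: 1608, 2383 and 1546 CPM in the OIR samples and 1482, 1638 and 1243 CPM in the control samples. The next highest cone bipolar-like cluster, led by Cck and Reln, held 102 to 167 CPM in OIR and 106 to 159 CPM in control samples.

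Ntn4, a netrin-family protein of basement membranes, was found in glia, pigment epithelium and mural cells. Its level was 64.4 ± 44.6 CPM in RPE-like and 58.1 ± 20.8 CPM in Mueller-like sums (SD, n = 6), with overlapping ranges. The range of Mueller-like sums lay above that of amacrine-like sums at 6.26 CPM. VSMC and pericyte-like cells, 0.223% of cells, gave 9.93% of Ntn4 UMIs. In the 1 sample with at least 10 such cells, control replicate 1, they carried 219 CPM from 112 UMIs.

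Unc5b, Plxnd1 and Efnb2, usually read on the endothelial side, were also found in Mueller glia. Efnb2 stood at 59.6 ± 18.7 CPM in Mueller-like, 33.6 ± 17.2 CPM in amacrine-like and 12.7 ± 2.01 CPM in cone bipolar-like sums (SD, n = 6), each overlapping its neighbour, and 67.5% of its UMIs came from Mueller-like cells. Unc5b stood at 27.0 ± 13.9 CPM in Mueller-like and 11.7 ± 1.99 CPM in cone-like sums, and Mueller-like cells gave 62.7%, cone-like cells 14.2% and VEC-like cells 7.26% of its UMIs. Plxnd1 stood at 13.8 ± 5.57 CPM in Mueller-like sums, and Mueller-like cells gave 53.1% and VEC-like cells 31.1% of its UMIs. Robo4 was different. Of its 264 UMIs, 251 (95.1%) fell in VEC-like cells, which were 0.503% of all cells, and its mean was at most 0.102 CPM in each of the 8 types compared.

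**Figure D1:**
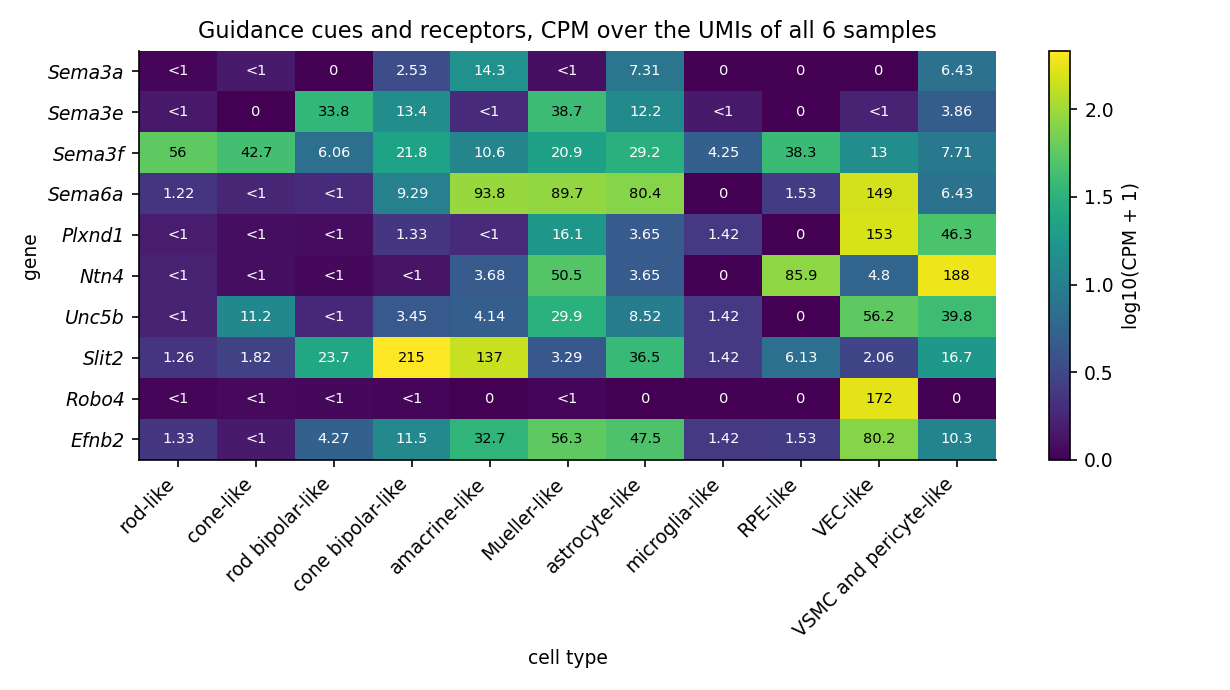
Heat map of the 10 genes (rows) in 11 cell types (columns). Each cell prints the CPM over the UMIs of all 6 samples pooled, and the colour is log10(CPM + 1), to be read along a row. Slit2 peaks in cone bipolar-like and amacrine-like cells, Sema3e in Mueller-like and rod bipolar-like cells, Ntn4 in VSMC and pericyte-like cells, and Robo4 reaches 172 CPM in VEC-like cells and stays under 1 elsewhere.

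OIR was then compared with control within each of 9 cell types by edgeR's quasi-likelihood test over all genes that passed its filter on low counts, and a gene was called where its Benjamini-Hochberg adjusted p lay under 0.05 and its log2 fold change was 0.25 or more in either direction. The 10 genes passed the filter in 24 pairs of gene and cell type, and 2 of the 24 were called. Both lay in rod bipolar-like cells: Sema3e and Slit2, which fell in OIR. There 3 of the 10 genes were tested, against 2.46% of all 9332 genes called in this cell type. In Mueller-like sums 0 of 7 were called (2.54% of all genes), in cone bipolar-like sums 0 of 5 (0.868%), in rod-like sums 0 of 4 (1.92%), in cone-like sums 0 of 2 (1.29%), in amacrine-like sums 0 of 2 (0% of 3895 genes, with 238 at an unadjusted p under 0.05 and 2 called by DESeq2) and in VEC-like sums 0 of 1 (0.315%). By the unadjusted p, 3 of the 7 were under 0.05 in Mueller-like sums (1748 of all 11533 genes), 2 of the 4 in rod-like sums (2061 of 11673), 2 of the 3 in rod bipolar-like sums (1347 of 9332) and 1 of the 2 in amacrine-like sums (238 of 3895). None of the genes tested was in cone bipolar-like (1228 of 10258), cone-like (1061 of 9404) or VEC-like sums (86 of 952). None of the 10 genes passed the filter in microglia-like sums (0.324% of genes called) or RPE-like sums (0.0567%).

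**Figure D2:**
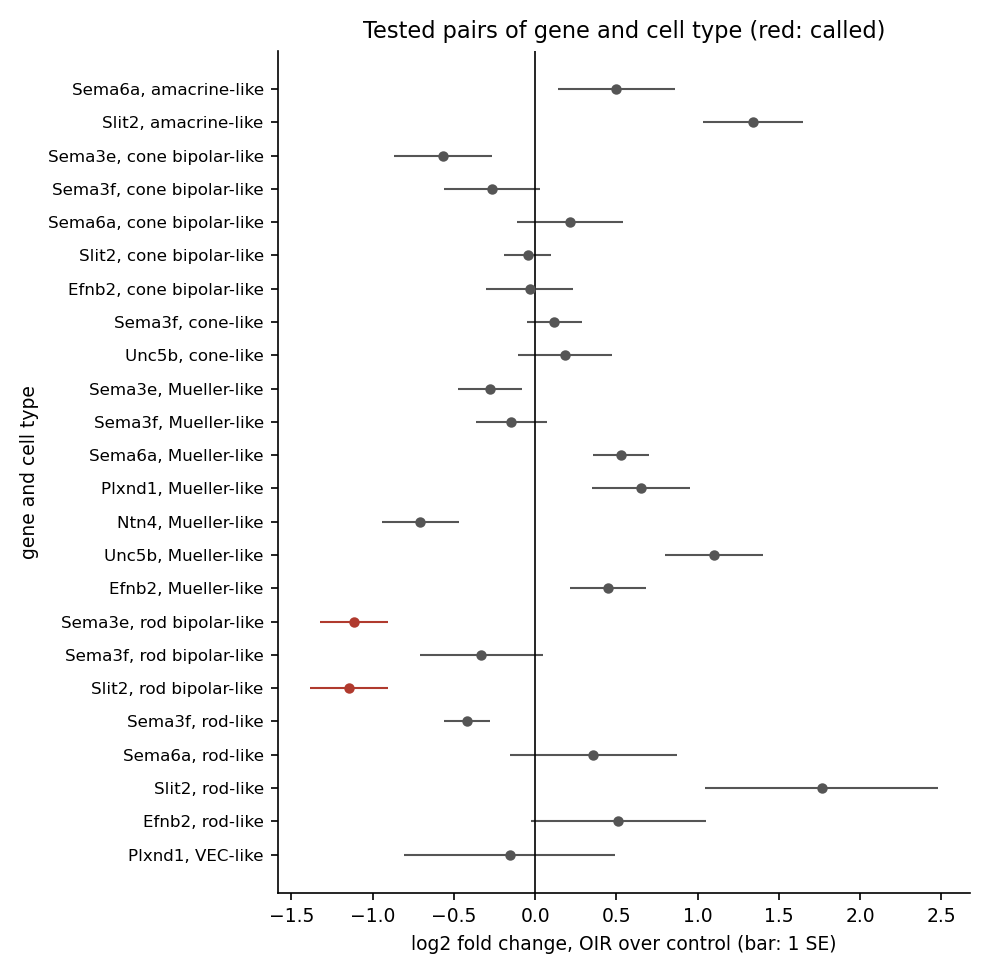
Log2 fold change of OIR over control (x axis, 3 against 3 sums) for the 24 tested pairs of gene and cell type, with bars of 1 standard error and called pairs in red. Sema3e and Slit2 in rod bipolar-like sums, at -1.11 and -1.15, are the 2 called pairs, and Slit2 lies on the other side of 0 in amacrine-like sums. It does so in rod-like sums too, where it passed the filter on low counts only through its higher OIR values.

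Rod bipolar cells carry rod signals to the inner retina. Sema3e in their sums was 18.5, 24.2 and 30.5 CPM in the OIR samples, from 88, 42 and 45 UMIs, and 42.9, 48.2 and 61.0 CPM in the control samples, from 234, 62 and 60 UMIs. Every OIR sample was below every control sample. The log2 fold change was -1.11 (SE 0.21, edgeR adjusted p = 0.0111). Slit2 in the same sums was 11.3, 15.6 and 22.4 CPM in the OIR samples, from 54, 27 and 33 UMIs, and 33.8, 31.1 and 34.6 CPM in the control samples, from 184, 40 and 34 UMIs. These groups did not overlap either, and the log2 fold change was -1.15 (SE 0.24, edgeR adjusted p = 0.0198). In this cell type 19.3% of all tested genes had groups without overlap, and of the 3 guidance genes tested 2 did. The third, Sema3f, was 6.51, 2.88 and 5.43 CPM in OIR and 6.79, 5.44 and 7.12 CPM in control samples, with a log2 fold change of -0.33 (SE 0.38, edgeR adjusted p = 0.760).

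The other 7 genes were near the floor in rod bipolar-like cells. Efnb2 had 67 UMIs over the 6 sums, with 2.31, 4.04 and 10.9 CPM in OIR and 4.04, 5.44 and 4.07 CPM in control samples. Sema6a, Unc5b, Ntn4, Plxnd1 and Robo4 each had at most 14 UMIs, and Sema3a had none in any of the 6 sums.

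**Figure D3:**
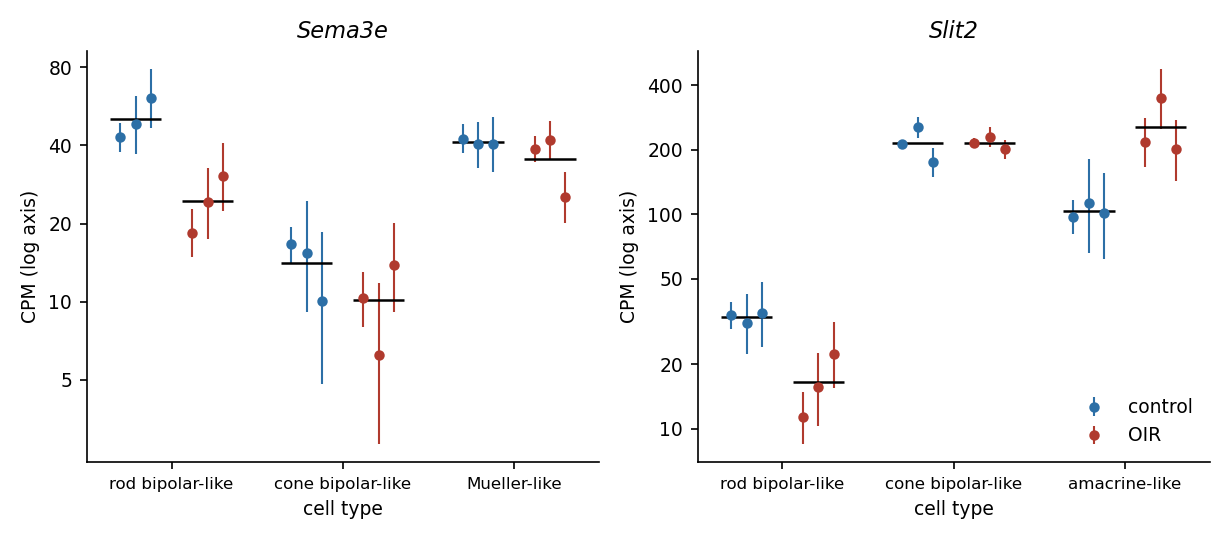
Sema3e and Slit2 in CPM (log axis) in control (blue) and OIR (red) samples of 3 cell types each, replicates 1 to 3 from left to right, with the exact 95% Poisson interval as bars and group means as black lines. In rod bipolar-like sums all OIR points lie under all control points for both genes, while Slit2 overlaps in cone bipolar-like sums and is higher in all OIR points in amacrine-like sums.

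Cell counts behind the rod bipolar values were 574, 184 and 157 in OIR and 818, 164 and 158 in control samples, and OIR cells were not shallower, with sample medians of 8444 to 10280 UMIs per cell against 6422 to 8214. The share of rod bipolar-like cells with at least 1 Sema3e UMI was 18.4% ± 4.88 in OIR and 28.1% ± 3.68 in control samples (SD, n = 3 each), and the two-sided exact permutation test gave p = 0.1, the smallest that 3 against 3 samples allow, and 1 after adjustment over the pairs tested. With cells thinned to 1000 UMIs the shares were 3.50% and 5.58% (exact permutation p = 0.4), after 19 OIR and 6 control cells under that depth were left out. For Slit2 the shares were 12.1% ± 5.03 and 16.3% ± 1.88 (exact permutation p = 0.3) and, thinned, 1.68% and 3.76% (p = 0.3, exact permutation). In rod-like cells, with sample medians of 1403 to 3083 UMIs, 0.111% of cells held a Sema3e UMI.

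Markers of neighbouring cell types were measured in the same rod bipolar-like sums. The 8 cone bipolar markers summed to 4411 to 5336 CPM in OIR and 3458 to 3639 CPM in control samples, without overlap. Cabp5, Grm6 and Isl1, which rod bipolar cells also express, made up most of it. The markers of cone bipolar cells alone were low. Grik1 lay at 26 to 34 CPM in OIR and 28 to 37 CPM in control samples, and Vsx1 at 7.5 CPM or less. Scgn, also a leading gene of the Slit2-rich cluster 12, lay at 2.52 to 13.6 CPM in OIR and 3.05 to 3.85 CPM in control samples. Neto1 and Tacr3 lay at 0.21 CPM or less. The 7 Mueller markers summed to 208 to 315 CPM in OIR and 85.4 to 249 CPM in control samples, the 7 amacrine markers to 5.04 to 8.65 and 4.07 to 8.81 CPM, and the 5 rod bipolar markers to 8851 to 10266 and 9590 to 13881 CPM. The 4 horizontal cell markers summed to 6.93 to 9.50 CPM in OIR and 0.778 to 5.51 CPM in control samples, and the 4 lens markers to 0.42 to 91.1 and 0 to 0.184 CPM, both without overlap. Their part in the lower Sema3e and Slit2 was not tested.

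Both calls rested on few samples. Sema3e was not called when the sex of the samples was a covariate (log2 fold change -0.95, edgeR adjusted p = 0.0643) or without OIR replicate 2 (adjusted p = 0.0692), and Slit2 was not called in replicates 2 and 3 alone (-0.85, edgeR adjusted p = 0.0643) or without OIR replicate 1 (0.0597), OIR replicate 2 (0.109), control replicate 2 (0.0580) or control replicate 3 (0.0527). With any 1 sample left out the log2 fold change stayed between -1.28 and -0.93 for Sema3e and between -1.39 and -0.91 for Slit2.

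Sema3e lies on mouse chromosome 5 at 14025276 to 14256689 (+ strand, build GRCm38) and Slit2 on the same chromosome at 47983138 to 48307733 (+ strand). The core ACGTG, which hypoxia-inducible factors bind, was looked for on both strands of 300-base promoter windows from RefSeq on GRCm38.p6 (250 bases before to 50 after a gene's start). It occurred in 6447 of 32851 windows (19.6%). Windows were at hand for 8 of the 10 genes, and the core occurred in 1, that of Sema3e, which is shown because Sema3e was called. The stretch below is chr5:14025287-14025316 on the + strand, and the capitals mark a palindrome that holds the core on both strands. The first base of the core ACGTG on the + strand is 24 after the gene start, inside the transcribed part.
Sema3e: gatgcggcgaggCACGTGggctggagacac
The window of Slit2, the other called gene, had no match, nor had those of Sema3a, Plxnd1, Efnb2, Robo4, Unc5b and Ntn4. The Sema3a window, at 13396534 to 13396833, lay well inside the gene, which spans 13125414 to 13602565 on the + strand. It thus does not cover that gene's first base. The windows of Slit2, Ntn4 and Robo4 were also set from a start other than the gene's first base. A match of letters does not show binding, and its absence in 300 bases says nothing of sites elsewhere.

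In cone bipolar cells, where most of the counted Slit2 UMIs lay, OIR and control did not separate. Slit2 was 216, 230 and 201 CPM in OIR and 214, 255 and 175 CPM in control samples, with a log2 fold change of -0.05 (SE 0.15, edgeR adjusted p = 0.943). Sema3e in the same sums was 10.3, 6.20 and 13.8 CPM against 16.6, 15.4 and 10.1 CPM (-0.57, SE 0.30, edgeR adjusted p = 0.486), and the groups overlapped. Of its 291 UMIs there, 262 came from cluster 9, led by Adarb2 and Cntn5, which held 43.2, 22.8 and 58.3 CPM in OIR and 69.1, 72.8 and 46.0 CPM in control samples. Sema3f, Sema6a and Efnb2 had log2 fold changes of -0.26, 0.21 and -0.03, none of them called.

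In amacrine cells, inhibitory neurons of the inner retina, the Slit2 values were higher in OIR. They were 218, 350 and 201 CPM in OIR, from 61, 41 and 38 UMIs, and 97.5, 113 and 101 CPM in control samples, from 121, 17 and 20 UMIs. The groups did not overlap, as was the case for 12.2% of the 3895 genes tested there, and the difference did not pass the threshold (log2 fold change 1.34, SE 0.31, edgeR unadjusted p = 0.000755, adjusted p = 0.473). The sums rested on 32, 37 and 62 OIR and 155, 27 and 41 control cells. Lists whose groups did not overlap in these sums were those of amacrine cells (7 markers, 1714 to 3785 CPM in OIR and 4299 to 4646 CPM in control samples), Mueller glia (7, 387 to 440 against 187 to 338 CPM), astrocytes (5, 21.2 to 205 against 6.67 to 15.2 CPM), VECs (9, 26.5 to 59.7 against 60.0 to 78.2 CPM) and VSMCs and pericytes (9, 3.58 to 21.2 against 25.3 to 33.3 CPM). The 6 rod markers, at 3806 to 12840 against 3427 to 6613 CPM, overlapped. The part of any of these in the Slit2 values was not tested.

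Whether the OIR effect on Slit2 differed between cell types was tested directly, with the sample as a block. Only genes called in rod bipolar-like sums of these same samples were tested so. The log2 fold change of Slit2 in rod bipolar-like sums was lower than in cone bipolar-like sums (difference -1.18, SE 0.21, edgeR adjusted p = 0.00136), where 1.46% of the 9122 genes tested passed. It was also lower than in amacrine-like sums (difference -2.44, SE 0.37, edgeR adjusted p = 0.0213), where 0.165% of 3636 genes passed. Against rod-like sums the difference was -2.87 (SE 0.72, edgeR adjusted p = 0.0720, with 1.53% of 8933 genes passing), and with the replicate number as a block it passed the threshold (-2.95, adjusted p = 0.00530). Slit2 passed the filter on low counts in rod-like sums only through its higher OIR values, so neither fit is read as support. The difference from cone bipolar-like sums did not pass without OIR replicate 1 (adjusted p = 0.0775). That from amacrine-like sums did not pass without OIR replicate 2 (0.0915) or control replicate 1 (0.202), 2 (0.0552) or 3 (0.129). For Sema3e no such difference was shown: rod bipolar-like against cone bipolar-like sums gave -0.48 (SE 0.29, edgeR adjusted p = 0.623) and against Mueller-like sums -0.86 (SE 0.28, edgeR adjusted p = 0.157, and 0.0316 without OIR replicate 3), where 1.99% of 8886 genes passed.

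Mueller glia span the whole retina and ensheath its vessels. They gave the largest number of tested guidance genes, 7, and none was called. The netrin receptor Unc5b came nearest, with 45.9, 21.3 and 43.2 CPM in OIR and 13.3, 18.9 and 19.4 CPM in control samples. All OIR samples were higher than all control samples, OIR replicate 2 by little, and the log2 fold change was 1.10 (SE 0.30, edgeR adjusted p = 0.0901). Under DESeq2 the adjusted p was 0.0279, without the filter on low counts 0.0024, and without OIR replicate 2 0.0143. In replicates 2 and 3 alone the log2 fold change was 0.64 (edgeR adjusted p = 0.314), and it was 0.84 without OIR replicate 1 (0.291), and the adjusted p was 0.263 without OIR replicate 3.

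The membrane semaphorin Sema6a was 109, 84.4 and 120 CPM in OIR and 60.1, 74.4 and 74.7 CPM in control samples, again without overlap, with a log2 fold change of 0.53 (SE 0.17, edgeR adjusted p = 0.157). In Mueller-like sums 20.5% of all tested genes had groups without overlap, and of the 7 guidance genes 2 did, Unc5b and Sema6a. The basement membrane netrin Ntn4 was 39.0, 54.7 and 41.6 CPM in OIR and 46.2, 76.9 and 89.9 CPM in control samples, where OIR replicate 2 exceeded control replicate 1. Its log2 fold change was -0.71 (SE 0.24, edgeR adjusted p = 0.171). It passed the threshold without control replicate 1 (-0.97, edgeR adjusted p = 0.0108), in replicates 2 and 3 alone (-0.89, 0.0230) and without the filter on low counts (0.0315), and was -0.11 with the sex term. Without control replicate 1, and in replicates 2 and 3 alone, group and sex cannot be told apart.

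The semaphorin receptor Plxnd1 was 22.4, 17.2 and 12.7 CPM in OIR and 14.2, 9.67 and 6.68 CPM in control samples (log2 fold change 0.65, SE 0.30, edgeR adjusted p = 0.346). In each replicate number the OIR sample was the higher one, but the groups overlapped. Efnb2 was 53.2, 70.3 and 86.0 CPM in OIR and 39.6, 39.5 and 68.6 CPM in control samples (0.45, edgeR adjusted p = 0.416). Sema3e, which fell in rod bipolar-like sums, was here 38.9, 41.9 and 25.3 CPM in OIR and 42.5, 40.4 and 40.7 CPM in control samples (-0.28, edgeR adjusted p = 0.581), and Sema3f had a log2 fold change of -0.15. Slit2 was at most 7.29 CPM and did not pass the filter.

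**Figure D4:**
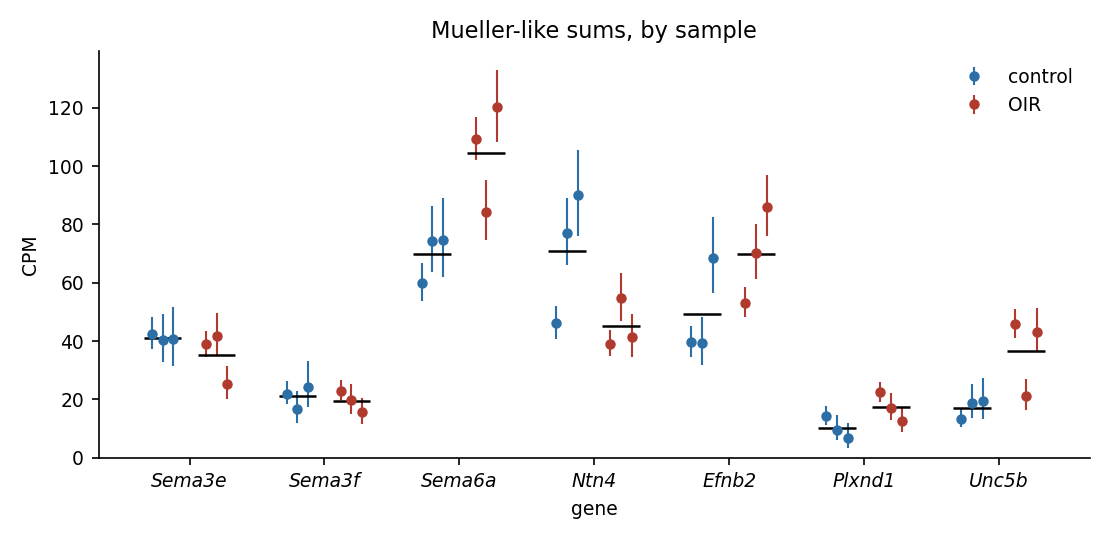
Level in CPM (linear axis from 0) of the 7 guidance genes tested in Mueller-like sums, in control (blue) and OIR (red) samples, replicates 1 to 3 from left to right, with the exact 95% Poisson interval as bars and group means as black lines. Unc5b and Sema6a lie higher in all OIR than in all control samples, and the other 5 genes overlap.

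Mueller-like cells formed 2 clusters of different depth. Cluster 3 held 2206 cells and cluster 6, with fewer UMIs per cell, 1279. The sample medians over both were 2400 to 8553 UMIs in OIR and 6573 to 8494 in control samples. Of the Mueller-like cells, cluster 6 held 272 of 937, 272 of 514 and 320 of 581 in the OIR samples. In the control samples it held 226 of 901, 109 of 292 and 80 of 260. Its part in the medians was not tested. Unc5b was 48.3, 21.2 and 47.9 CPM in OIR and 14.4, 20.9 and 21.1 CPM in control samples within cluster 3, and 26.4, 21.6 and 25.9 CPM against 3.59, 3.71 and 5.60 CPM within cluster 6, where the control samples held 2, 1 and 1 UMIs. Endothelial RNA in these sums was looked at because Unc5b and Plxnd1 are also VEC genes. The 9 VEC markers summed to 1062 to 1311 CPM in OIR and 916 to 1038 CPM in control samples, without overlap. Nearly all of it was Flt1, Kdr and Egfl7, and Egfl7 lay at 40.3 to 52.1 CPM in OIR and 6.3 to 8.5 CPM in control samples, also without overlap. Cldn5 was at most 4.8, Pecam1 2.9, Cdh5 0.52 and Robo4 0.18 CPM in any sample. The 5 astrocyte markers summed to 54.2 to 59.5 CPM in OIR and 18.8 to 34.5 CPM in control samples, and the 7 ganglion cell markers to 22.1 to 34.1 and 37.0 to 45.8 CPM, both without overlap. The part of these markers in the Unc5b, Plxnd1 and Sema6a values was not tested.

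In photoreceptors, Sema3f was 61.1, 47.5 and 47.2 CPM in OIR and 62.6, 64.4 and 60.3 CPM in control rod-like sums, where OIR replicate 1 lay within the control range. The log2 fold change was -0.42 (SE 0.14, edgeR adjusted p = 0.173). With the replicate number as a block it was -0.44 and passed the threshold (edgeR adjusted p = 0.0431). It also passed in replicates 2 and 3 alone (-0.59, 0.00258), where group and sex cannot be told apart, and without OIR replicate 1 (-0.60, 0.0309). Slit2 in rod-like sums was 3.07, 1.56 and 1.29 CPM in OIR and 1.26, 0.404 and 0.103 CPM in control samples, 1 of the 4 guidance genes without overlap, against 27.6% of all genes tested there. Its log2 fold change was 1.76 (SE 0.72, edgeR adjusted p = 0.245), from 61 UMIs in the OIR and 12 in the control samples. Control replicates 2 and 3 lay under the limit of the filter on low counts. Slit2 was thus tested there only through its higher OIR values, and its change in rod-like sums is not read as a contrast to other cell types. The replicate 1 samples were the highest of their group. The log2 fold change was 2.71 without control replicate 1 (edgeR adjusted p = 0.0487) and 2.23 in replicates 2 and 3 alone (0.0294). In both of these fits group and sex cannot be told apart. The log2 fold change was 0.46 with the sex term (0.814), 0.91 after clustering without integration (0.269) and 1.07 after clustering without the guidance genes (0.196). In cone-like sums Sema3f was 44.7, 43.3 and 51.5 CPM in OIR and 39.4, 42.7 and 41.8 CPM in control samples (log2 fold change 0.12, edgeR adjusted p = 0.875). Those groups did not overlap, as was so for 16.9% of genes in cones, while Unc5b, at 9.38 to 14.1 CPM in OIR and 9.89 to 12.9 CPM in control samples, did (0.18, edgeR adjusted p = 0.885).

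The endothelial receptors could be compared only weakly. VEC-like cells numbered 25, 2 and 2 in the OIR samples and 145, 4 and 16 in the control samples, and their sums held 206217, 8480 and 3421 UMIs against 1125746, 57595 and 58197. In OIR replicate 3 the 2 cells lacked 6 of the 9 VEC markers. Levels are therefore given for single samples with the exact 95% Poisson interval, which covers counting error only. The 9 VEC markers summed to 8006, 11910 and 1462 CPM in the OIR samples and 13267, 11268 and 9915 CPM in the control samples. The 7 Mueller markers summed to 6585, 1887 and 585 CPM against 4457, 1927 and 2818 CPM. The part of either in the receptor levels was not tested.

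Robo4, the endothelial member of the Robo family, stood at 92.1 CPM (55.5 to 144, 19 UMIs) in OIR replicate 1 and at 186 CPM (161 to 213, 209 UMIs) in control replicate 1. The other samples with more than 1 UMI were control replicates 2 and 3, at 104 CPM (38.2 to 227) and 275 CPM (157 to 446). Plxnd1, the Sema3e receptor, had the opposite order in the deepest pair, 281 CPM (214 to 364, 58 UMIs) in OIR replicate 1 and 109 CPM (90.8 to 130, 123 UMIs) in control replicate 1. Control replicates 2 and 3, however, held 382 CPM (239 to 578) and 326 CPM (197 to 510), so the spread among control samples was larger than that difference. Plxnd1 was the 1 gene of the 10 that passed the filter in VEC-like sums, and its log2 fold change was -0.16 (SE 0.65, edgeR adjusted p = 0.990), which turned positive with the replicate number as a block (0.16) and with the sex term (0.94).

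Unc5b was 107 CPM (66.9 to 162, 22 UMIs) in OIR replicate 1 and 43.5 CPM (32.2 to 57.5, 49 UMIs) in control replicate 1, with 52.1 CPM (10.7 to 152) and 103 CPM (37.8 to 224) in control replicates 2 and 3. The value of control replicate 3 lay just under that of OIR replicate 1, which its interval covered. Sema6a was 102 CPM (63.0 to 156) in OIR replicate 1 against 159 CPM (137 to 184), 226 CPM (120 to 386) and 85.9 CPM (27.9 to 200) in the control samples. Efnb2 was 63.0 CPM (33.6 to 108) against 86.2 CPM (69.9 to 105) and 69.5 CPM (18.9 to 178), with 0 UMIs in control replicate 3. OIR replicates 2 and 3 together held 8 UMIs of these 5 genes, 2 of Plxnd1, 2 of Unc5b, 1 of Robo4 and 3 of Efnb2, all in replicate 2.

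**Figure D5:**
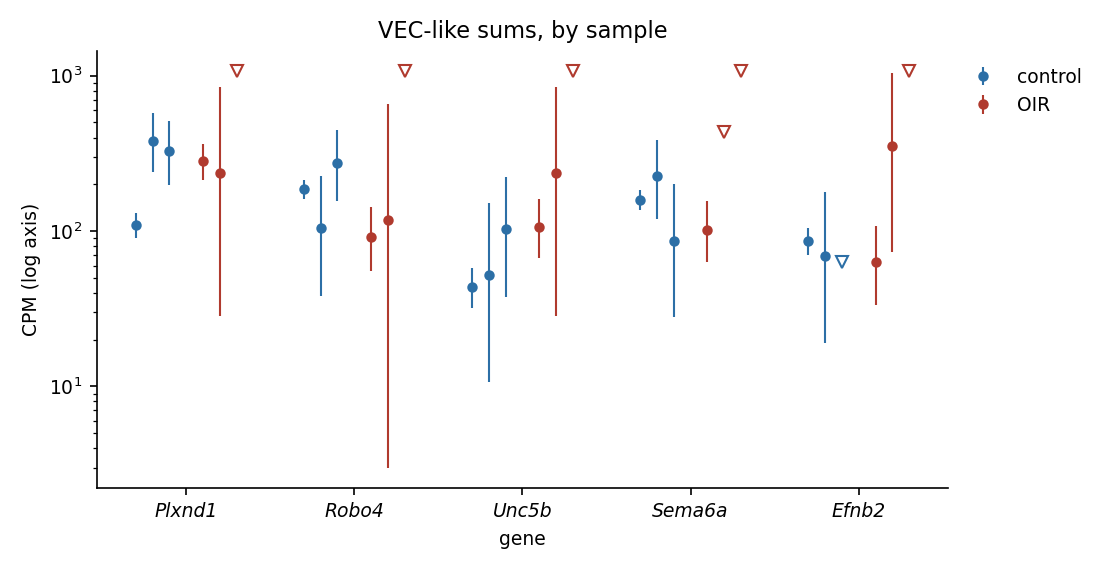
Level of Plxnd1, Robo4, Unc5b, Sema6a and Efnb2 in VEC-like sums (CPM, log axis) in control (blue) and OIR (red) samples, replicates 1 to 3 from left to right, with the exact 95% Poisson interval as bars. An open triangle marks the upper end of the interval where a sample held 0 UMIs, and the intervals of OIR replicates 2 and 3, each from 2 cells, are far wider than those of control replicate 1, from 145 cells.

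Over all 6 samples, 109 of the 194 VEC-like cells held a Robo4 UMI, 97 a Sema6a, 90 a Plxnd1, 61 an Efnb2 and 43 an Unc5b UMI. Since 145 of these cells were of control replicate 1, the mean share over the 6 samples is given too (± SD, n = 6). It was 44.7% ± 26.1 for Robo4, 36.2% ± 38.5 for Sema6a, 47.9% ± 31.7 for Plxnd1, 27.2% ± 22.7 for Efnb2 and 30.1% ± 19.5 for Unc5b. Samples of few cells weigh as much in these means as the others, and the lowest share was 0% for each gene. Of the secreted cues, Sema3f had 19 UMIs in them, or 13.0 CPM over all samples pooled. The other secreted cues were nearly absent, with 7 UMIs of Ntn4, 3 of Slit2, 1 of Sema3e and 0 of Sema3a. Robo4, Unc5b, Sema6a and Efnb2 did not pass the filter in VEC-like sums, so OIR and control were not tested for them.

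Mural and astrocytic cells were also too few for a test. In VSMC and pericyte-like cells Ntn4 had 2, 9 and 7 UMIs in OIR and 112, 8 and 8 UMIs in control samples, and Unc5b 13, 0 and 0 against 12, 4 and 2. Robo4 was at 0 there. In astrocyte-like cells, pooled over samples, Sema6a was 80.4 CPM, Efnb2 47.5, Slit2 36.5 and Sema3f 29.2 CPM. Single samples weighed heavily: OIR replicate 1 gave 22 of the 30 Slit2 and 35 of the 66 Sema6a UMIs, and control replicate 1 gave 24 of the 39 Efnb2 UMIs. Clustering without integration named 28 cells astrocyte-like in place of 56.

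The wider semaphorin, netrin, Slit and ephrin systems were read from a list of 71 other genes, of which 70 were in the files and 57 were tested in at least 1 cell type. Of these, 6 genes were called, in 7 pairs of gene and cell type, 6 pairs up and 1 down in OIR. In rod bipolar-like sums 3 of 20 were called, 2 up and 1 down (2.46% of all genes were called). The median log2 fold change was 0.09 over the 20 and -0.004 over all genes. The transmembrane semaphorin Sema5b was 26.7, 28.3 and 33.9 CPM in OIR and 7.16, 16.3 and 11.2 CPM in control rod bipolar-like sums (log2 fold change 1.48, edgeR adjusted p = 0.0111). It also rose in cone bipolar-like sums, with 30.6, 33.1 and 30.7 CPM against 10.8, 13.7 and 17.1 CPM (1.25, edgeR adjusted p = 0.0178). In those sums 1 of 40 was called (0.868% of all genes). The semaphorin Sema4g rose in rod bipolar-like sums from 9.36, 10.1 and 10.2 CPM to 22.5, 20.2 and 21.0 CPM (1.10, edgeR adjusted p = 0.0240). Unc5d, a netrin receptor of the family of Unc5b, fell there from 16.0, 14.0 and 25.4 CPM to 6.93, 8.65 and 6.11 CPM (-1.32, edgeR adjusted p = 0.0296). Rod bipolar cells thus held called guidance genes in both directions.

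In Mueller-like sums 1 of 42 was called, where 2.54% of all genes were. It was Efna1, an ephrin-A ligand, at 26.0, 38.5 and 26.6 CPM in OIR and 14.9, 9.25 and 10.3 CPM in control samples (log2 fold change 1.25, edgeR adjusted p = 0.0215). In rod-like sums 2 of 34 were called, both up, where 1.92% of all genes were called. The median log2 fold change was 0.28 over the 34 and 0.001 over all genes. The membrane-anchored semaphorin Sema7a was 28.3, 31.9 and 38.6 CPM in OIR and 14.6, 11.5 and 9.69 CPM in control samples (1.33, edgeR adjusted p = 0.0110). Dscam, an adhesion molecule that can act as a netrin receptor, was 15.6, 36.2 and 38.4 CPM in OIR and 5.22, 7.28 and 7.83 CPM in control samples (1.96, edgeR adjusted p = 0.0243). None of the 21 tested in cone-like (1.29% of all genes called), 8 in amacrine-like (0%), 7 in microglia-like (0.324%), 3 in RPE-like (0.0567%) and 2 in VEC-like sums (0.315%) was called. With the replicate number as a block, 22 pairs were called in place of 7. The share of all genes called under the block is not given here, so this rise is not read as particular to guidance genes.

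Genes with the most similar distribution were named for each of the 10 by Pearson's r of log2(CPM + 1) over 55 sums of sample and cell type in 11 types, among 10007 genes. These sums share libraries and types, so r describes cell type patterns only. Robo4 was closest to Sox17, an endothelial transcription factor (r = 0.993), Plxnd1 to Mcam (0.881), Unc5b to Ece1 (0.776) and to Plxnd1 itself (0.772). Sema3e was closest to Sema5b (0.881), the semaphorin described above. Sema6a was closest to Tspan12 (0.913), Efnb2 to Adam11 (0.822) and next to Sema6a (0.811), and Ntn4 to Fgfr1 (0.828). Slit2 was closest to Nrxn2 (0.907), Sema3a to Kcna1 (0.913) and Sema3f to Gm28875 (0.775).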

How the data were processed

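Retinal cells from 3 OIR and 3 control samples were profiled with droplet-based 3′ chemistry (version 3 kit). The deposited matrices hold raw UMI counts for each barcode, not normalized by the authors, and mm10 is the build in the submitters' processing notes. Every deposited barcode held at least 500 UMIs. Cells with 500 to 5000 genes and at most 20% mitochondrial UMIs were clustered with Seurat 5.3.0 in R 4.3.3 (OIR and control integrated, 15 principal components, resolution 0.5) and named from marker lists with "-like" added. No doublet caller was run. UMIs were summed per sample and cell type, and types of 10 or more cells per sample, with VEC-like cells in any case, were tested with edgeR 4.0.16 (quasi-likelihood test on TMM-scaled counts after filterByExpr, without covariates). Differences between cell types were tested as an interaction with the sample as a block. Alternatives were DESeq2 1.42.0, leaving out each sample, no filter on low counts, a term for sex (from Xist and Y-linked UMIs), replicates 2 and 3 alone, blocking on the replicate number, a mitochondrial limit of 10%, clustering without the guidance genes, Leiden clustering without integration (scanpy 1.11.5), VEC-like cells with a Cldn5 UMI, and cells thinned to 1000 UMIs.

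Exact permutation tests were two-sided (SciPy 1.17.1, Python 3.11.15). Exact Poisson intervals (95%) reflect counting error alone. The edgeR fit was checked on simulated counts for rod bipolar-like, Mueller-like and VEC-like sums. The test of a difference was checked for rod bipolar-like against cone bipolar-like sums. The 10 genes are all named, as are, of the other guidance genes, up to 3 called genes with the lowest p per direction and cell type and, for likeness, the 3 genes with the highest Pearson's r per gene, of which the first 1 or 2 are printed. The genes, lists and tests were chosen with earlier results of these data known. Equal replicate numbers in the sample titles were taken to pair an OIR with a control sample only in the fits that blocked on the replicate number. The main fits were not paired. The deviations of equally numbered samples from their group means correlated over genes at 0.670, 0.299 and 0.507 in sums over all cells. In single cell types the lowest of these correlations was -0.128. The labels do not say what a shared number stands for. Nothing more is said in the labels of how replicates relate, so p-values measure the spread between these pools. Horizontal and ganglion cells, protein measurements and other parts of the study were not analysed here.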

Additional observations from a re-analysis of the deposited data

Results flagged for a closer look

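With all 6 samples, the OIR effect on Slit2 differed between cell types by the test of the difference itself. Only genes called in rod bipolar-like sums of the same samples were tested so. The difference from cone bipolar-like sums did not pass without OIR replicate 1. That from amacrine-like sums did not pass without OIR replicate 2 or without any 1 of the control samples. The log2 fold change in rod bipolar-like sums minus that in cone bipolar-like sums was -1.18 (SE 0.21, edgeR adjusted p = 0.00136, with 133 of 9122 genes passing), and the 2 single effects were -1.15 and -0.05. The log2 fold change in rod bipolar-like sums minus that in amacrine-like sums was -2.44 (SE 0.37, edgeR adjusted p = 0.0213, with 6 of 3636 genes passing), and the effect in amacrine-like sums was 1.34. In amacrine-like sums the marker lists of amacrine cells (1714 to 3785 CPM in OIR against 4299 to 4646 CPM in control samples), Mueller glia (387 to 440 against 187 to 338), astrocytes (21.2 to 205 against 6.67 to 15.2), VECs (26.5 to 59.7 against 60.0 to 78.2) and VSMCs and pericytes (3.58 to 21.2 against 25.3 to 33.3) did not overlap between the groups, while that of rods did. Their part in the difference was not tested.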

How the results depend on the processing

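Of the 10 genes, 2 pairs of gene and cell type were called outside VEC-like sums in the fit described, 3 with DESeq2, 4 with no filter on low counts, 4 in replicates 2 and 3 alone, 1 with the sex term, and 1 to 4 with each sample left out in turn (4 without control replicate 1, and 1 without OIR replicate 2, control replicate 2 or control replicate 3). In VEC-like sums the count was 0 under every alternative run. Other guidance genes numbered 7 called pairs, 20 with no filter on low counts, 22 with the replicate number as a block, 16 in replicates 2 and 3 alone, and 1 to 9 with each sample left out. The shares of all genes called under these alternatives are not given here. Changes in either count are therefore not read as particular to guidance genes. Tests of a difference between cell types passed in 2 of 5, and in 1 to 3 with each sample left out. With all samples, 0.165% to 1.99% of all genes tested passed in these comparisons. The block changed the call of no member other than Sema3f in rod-like sums, and of no difference other than Slit2 in rod bipolar-like against rod-like sums (-2.95). That difference is not read as support, since Slit2 was tested in rod-like sums only through its higher OIR values.

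Plxnd1 in VEC-like sums was 0.16 under the replicate block and 0.94 with the sex term, with -1.03 to 0.32 as the range over samples left out. Efnb2 in cone bipolar-like sums was 0.047 in replicates 2 and 3 alone and 0.053 with the sex term (-0.16 to 0.15 with samples left out). With the sex term, Efnb2 and Sema6a in rod-like sums were -0.17 and -0.33. Unc5b in cone-like sums was -0.089 in replicates 2 and 3 alone (-0.0052 to 0.37 with samples left out). Ranges over samples left out that crossed 0 were -0.45 to 0.078 for Sema3f, -0.16 to 0.46 for Sema6a and -0.16 to 0.066 for Slit2, all in cone bipolar-like sums. Thinning to 1000 UMIs was compared for the tested pairs of gene and cell type outside VEC-like sums. The OIR minus control share of cells turned its sign to 7.09 percentage points for Sema6a in amacrine-like cells. It turned to 0.321 and 0.659 for Sema3e and Sema3f in cone bipolar-like, and to -0.577 and -0.188 for Sema3f and Unc5b in cone-like cells. In rod-like cells it turned to -0.854 and -0.0143 for Sema3f and Sema6a. Untested pairs are not listed in full, and among them Robo4 in VEC-like cells went from -34.8 to 8.34 percentage points. The cause was not tested for any of these. The mean level of each of the 10 genes in its highest cell type moved by less than 1 SD under clustering without the guidance genes and under the mitochondrial limit of 10%. Depth limits mainly VEC-like sums in OIR replicates 2 and 3, of 2 cells each, and genes under about 5 CPM in rods.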

Other observations

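Within single clusters of cone bipolar-like cells, the UMI counts of Sema6a and Sema3a differed between the OIR and control samples. These values were chosen after they were seen and carry no test. Sema6a in cluster 12, the Slit2-rich one, had 14, 3 and 9 UMIs in the OIR samples and 3, 0 and 0 UMIs in the control samples (17.5, 24.9 and 43.8 CPM against 2.55, 0 and 0 CPM), in 168 OIR and 224 control cells, while Sema6a over all cone bipolar-like sums overlapped between the groups. In cluster 8 it had 29, 7 and 16 UMIs in the OIR samples and 41, 14 and 11 UMIs in the control samples (14.3, 14.8 and 25.3 CPM against 20.7, 38.0 and 30.4 CPM). Sema3a in cluster 9 had 14, 5 and 4 UMIs in the OIR samples (304 cells) and 2, 0 and 1 UMIs in the control samples (396 cells). In cluster 11 it had 1, 1 and 0 UMIs in the OIR samples (250 cells) and 15, 1 and 1 UMIs in the control samples (347 cells). Most of the higher counts thus came from the replicate 1 samples.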
